A study of Mus musculus with 6 samples.

Results

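The REV-ERB nuclear receptors are encoded by Nr1d1 (REV-ERB alpha) and Nr1d2 (REV-ERB beta), and both genes were found by symbol among the 9720 protein-coding genes measured in sorted mouse cones. Their transcript levels were compared between 3 control and 3 cone-specific Bmal1 knockout libraries. Cones were sorted by eGFP from dissociated neural retinas of adult C57BL/6 mice of mixed background, housed under a cycle of 12 h light and 12 h dark. All animals carried the HRGPcre transgene, which drives Cre recombinase in cones from a human red and green opsin promoter, and the Z/EG reporter, which gives eGFP after recombination. The control genotype was HRGPcre;Bmal1f/+;Z/EG, with 1 floxed copy of Bmal1. The knockout genotype was HRGPcre;Bmal1f/f;Z/EG, with 2 floxed copies. A recombined control cone therefore keeps 1 intact copy, although the series text calls the controls wild type. The age is labelled postnatal day 60 to 80 and also 2 to 6 months. Neither the time of day of collection nor the number of animals per library is given in the sources used here, so p-values measure the spread between these libraries, which may be technical.

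REV-ERB alpha and beta are heme-binding nuclear receptors that lack the activation helix of other receptors and act as repressors. They bind the same DNA elements as the ROR receptors, which activate there, and they recruit the NCoR and HDAC3 corepressor complex. In the circadian clock, BMAL1 and its partner CLOCK activate Nr1d1 and Nr1d2 through E-box elements, and the REV-ERB proteins in turn repress Arntl (the gene of BMAL1), Nfil3 and Cry1. The pair thus forms a second feedback loop beside that of the period and cryptochrome genes, and in the retina as elsewhere its transcripts cycle over the day.

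The 250 bases upstream of the RefSeq start of each gene are shown because both genes are textbook E-box targets, and the 2 windows differ in the clock motifs they hold. Both windows are on GRCm38.p6 and are printed 5′ to 3′ along the minus strand, on which both genes lie. Capitals mark a match to the E-prime box CACGTT, read on either strand.
Nr1d1, chr11:98775378-98775627: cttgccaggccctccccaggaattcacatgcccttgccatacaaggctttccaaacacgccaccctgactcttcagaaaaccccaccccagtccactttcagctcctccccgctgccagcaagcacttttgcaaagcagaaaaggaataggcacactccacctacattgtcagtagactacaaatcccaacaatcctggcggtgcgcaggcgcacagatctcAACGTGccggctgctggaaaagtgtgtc
Nr1d2, chr14:18239107-18239356: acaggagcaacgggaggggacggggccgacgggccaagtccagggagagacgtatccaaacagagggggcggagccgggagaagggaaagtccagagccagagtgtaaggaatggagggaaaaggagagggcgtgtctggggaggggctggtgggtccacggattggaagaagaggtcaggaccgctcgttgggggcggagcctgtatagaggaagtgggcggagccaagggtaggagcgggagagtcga

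Each window was searched on both strands for the E-box CACGTG, the E-prime box CACGTT, the core of the ROR and REV-ERB element TAGGTCA and the D-box TTANGTAA, the site of PAR bZIP factors. The Nr1d1 window held 1 E-prime box, starting 28 bases before the RefSeq start, and the Nr1d2 window held none of these motifs. Of 32851 mouse promoter windows of this length, 6.02% held the E-box, 3.85% the E-prime box, 2.23% the ROR and REV-ERB core and 2.06% the D-box. Members, clock and ROR genes with a window numbered 19 and had 25 windows. The counts that follow are per gene, whereas the shares above are per window. An E-prime box stood in a window of 4 genes (Nr1d1, Cry1, Cry2 and Rorb). An E-box stood in a window of Per1, Cry1, Bhlhe41, Ciart and Tef, a ROR and REV-ERB core in that of Nfil3. A D-box stood in a window of Per3 and Rorb. Base composition also differed, with 54.8% G and C for Nr1d1 and 63.6% for Nr1d2. A match is a description of these letters, and elements farther from the start or within the genes lie outside the windows.

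Values are FPKM (fragment counts divided by transcript length and by the size of the library), so they can be compared between genes per length, and the read depth is unknown. The sum over all genes ranged from 84995 to 128773 FPKM, both ends being control libraries, against 102059 to 106900 FPKM in knockout. In control 3 a single gene model, Gm17364, held 10.03% of the sum. Arntl, the deleted gene, read 2.9998, 2.60 and 3.27 FPKM in the controls against 3.37, 2.28 and 3.48 FPKM in knockout, so its groups overlapped. This value covers the whole gene and does not check the genotype labels. All 12 cone markers were present, with a summed level of 4126 to 6945 FPKM in the controls against 5548 to 6696 FPKM in knockout. The 14 rod markers were also present, at 3010 to 3700 and 2528 to 3636 FPKM in sum. No cone or rod marker passed the test described next (1 of 12 and 0 of 14 had an unadjusted limma p under 0.05). All knockout values lay above all control values for 1 of 12 cone and 3 of 14 rod markers, against 3.52% of all tested genes. The reverse held for 0 markers of either list, against 5.87% of all tested genes. Summed markers ranged in control and knockout from 91.8 to 120 and 101 to 111 FPKM for Müller glia (7 of 9 in the table), from 49.4 to 72.4 and 55.7 to 59.9 FPKM for bipolar cells (8 of 9), and from 8.98 to 11.2 and 5.01 to 8.15 FPKM for amacrine cells (2 of 7). Ganglion cell markers (3 of 7) summed to between 2.63 and 23.9 FPKM in control, the highest being control 1, and to 2.07 to 2.32 FPKM in knockout. Of microglia, 1 of 6 markers was in the table, at 1.47 FPKM or less, and no pigment epithelium marker was. In these bulk libraries, fewer cells of a type and less RNA per cell cannot be told apart.

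Nr1d1 was the most abundant nuclear receptor transcript of the control libraries, which also held rod markers, and it fell in knockout. The gene (ENSMUSG00000020889.11) spans 98767932 to 98775333 of chromosome 11, minus strand, in GRCm38. The control libraries read 38.3, 47.1 and 56.3 FPKM, and the knockout libraries read 2.87, 4.62 and 4.91 FPKM. The groups were far apart, since the lowest control value was 7.80 times the highest knockout value. Means were 47.2 ± 8.98 and 4.13 ± 1.11 FPKM (SD, n = 3 each), an 11.4-fold difference. On the scale of log2(FPKM + 1), Nr1d1 fell by 3.24 with a 95% interval from -3.78 to -2.70 (limma adjusted p = 0.00013, over 8627 genes). In rank among all 9720 genes by mean level, it went from 286 in control to 4500 in knockout, so the knockout level was close to that of the middle gene.

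Nr1d2 was the less abundant of the pair in every library, and its fall was called as well. The gene (ENSMUSG00000021775.10) spans 18204054 to 18239127 of chromosome 14, also minus strand. The control libraries read 8.38, 6.73 and 9.40 FPKM, and the knockout libraries read 0.822, 0.882 and 0.877 FPKM. Again no values overlapped, with the lowest control at 7.64 times the highest knockout. Means were 8.17 ± 1.35 and 0.860 ± 0.033 FPKM (SD, n = 3 each), a 9.50-fold difference. On the log2(FPKM + 1) scale Nr1d2 fell by 2.29, with a 95% interval from -2.75 to -1.83 (limma adjusted p = 0.00030). Its rank went from 2593 to 8758 of 9720. Every gene in the table exceeded 1 FPKM in at least 1 library, and Nr1d2 did so only in control. Genes low in both groups are absent, so its knockout rank holds only among the genes kept.

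Across the whole table, limma called 5 genes lower (0.058% of those tested) and 4 higher (0.0464%), and both REV-ERB genes were among the 5. With FPKM brought to a common sum of 1000000 per library, the calls were 5 lower and 6 higher. Values apart between the groups were far more common, at 5.87% of tested genes for all knockout values below all control values and 3.52% for the reverse. The count of changed genes was thus small, and each REV-ERB gene stood in it under every alternative that tested it, 18 for Nr1d1 and 17 for Nr1d2.

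**Figure D1:**
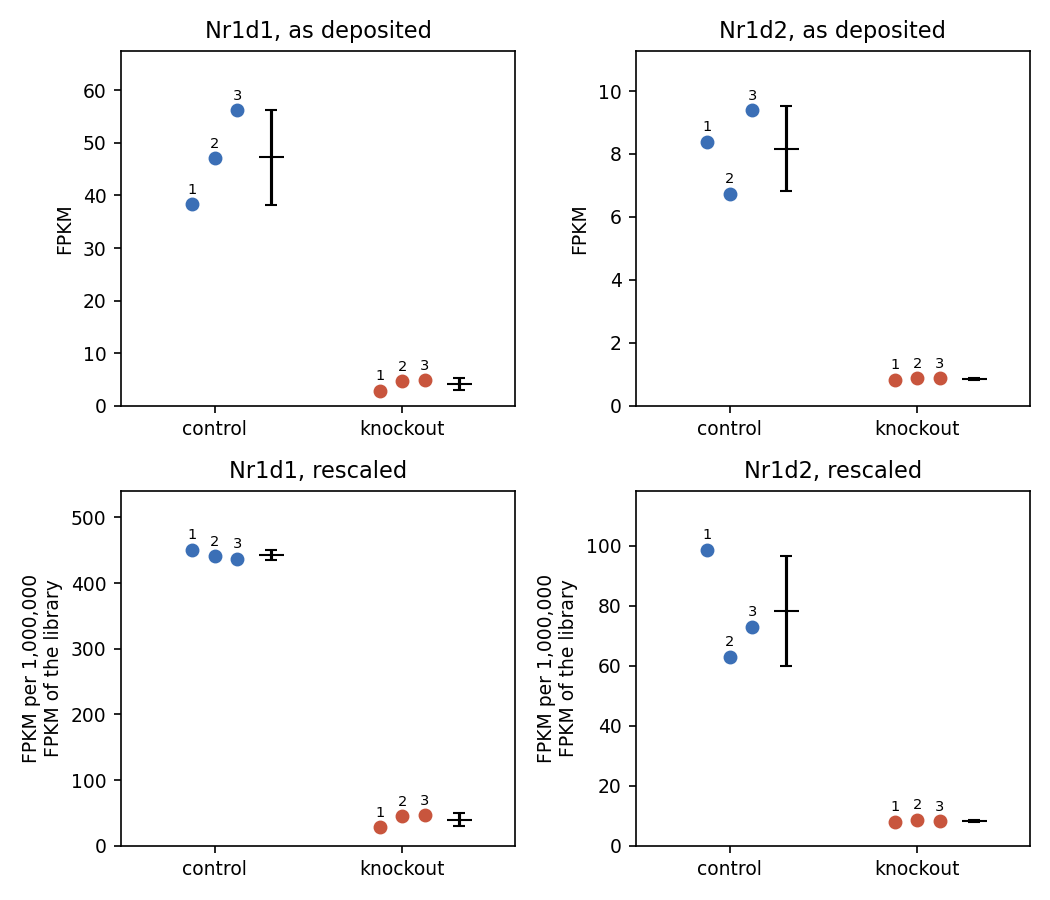
Level of Nr1d1 (left) and Nr1d2 (right) in each library, as deposited in FPKM (top) and per 1000000 FPKM of the library sum (bottom); points are libraries numbered by replicate, and bars are the mean and SD of 3. All knockout points lie below all control points in each panel, and rescaling draws the Nr1d1 control points together but not those of Nr1d2.

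The size of the log2 change depended on the value added before the logarithm, which weighs on Nr1d2 because its knockout level lies under 1 FPKM. With 0.1 FPKM added in place of 1, the change was -3.50 for Nr1d1 and -3.09 for Nr1d2. The ratio of the 2 genes within a library does not depend on scaling. It read 4.57, 6.995 and 5.98 in control and 3.49, 5.25 and 5.60 in knockout, so these groups overlapped. The mean ratio was 5.85 ± 1.22 in control and 4.78 ± 1.13 in knockout (SD, n = 3 each). The log2 difference between groups was -0.30 ± 0.28 (SE; exact two-sided permutation p = 0.4, where 0.1 is the smallest that 3 against 3 allows). On the deposited scale a larger fold for 1 of the 2 genes was therefore not detectable, which does not show that they fell alike. With 1 FPKM added to each value the log2 difference of the ratio was -0.95 (exact two-sided permutation p = 0.1, the smallest possible). As deposited and without knockout 1 it was -0.088.

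The libraries of a group spread differently for the 2 genes. In control, the coefficient of variation of Nr1d1 was 19.0% as deposited, and the values followed the FPKM sums of their libraries. After rescaling to a common sum they read 451, 441 and 437, with a coefficient of variation of 1.597%. The sum used for control 3 includes Gm17364 at 10.03%, against 2.45% for the same gene model in control 2. For Nr1d2 the same rescaling gave 98.6, 63.03 and 72.99, with a coefficient of variation of 23.5% against 16.5% before. In knockout, Nr1d1 varied by 26.8% and Nr1d2 by 3.84% as deposited. Knockout 1 was the lowest in both genes, by 30.7% below the group mean for Nr1d1. After median-ratio scaling the control variation of Nr1d1 was 5.36%, and the fold between groups was 11.1 for Nr1d1 and 9.33 for Nr1d2.

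The ROR receptors, activators at the elements that REV-ERB occupies, did not pass the test. Rora, which encodes ROR alpha, read 19.8, 23.04 and 28.5 FPKM in the controls against 31.8, 30.97 and 29.2 FPKM in knockout. Its knockout values lay just above all controls, and the log2 difference was 0.37 (limma adjusted p = 0.93). Rorb, the photoreceptor and neuronal member, measured 10.2 ± 2.34 and 11.5 ± 1.64 FPKM (limma adjusted p = 0.9996). The sum of Nr1d1 and Nr1d2 was 55.4 ± 9.58 FPKM in the controls against 4.99 ± 1.14 FPKM in knockout, against 33.96 ± 6.19 and 42.2 ± 2.74 FPKM for Rora and Rorb. The ratio of these sums within a library read 1.56, 1.74 and 1.598 in control. In knockout it read 0.085, 0.125 and 0.148. REV-ERB transcripts thus outnumbered ROR transcripts per length in each control library and were the minority in each knockout library. The mean ratio was 13.7 times higher in control, a log2 difference of -3.81 ± 0.24 (SE; exact two-sided permutation p = 0.1, the smallest possible).

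**Figure D2:**
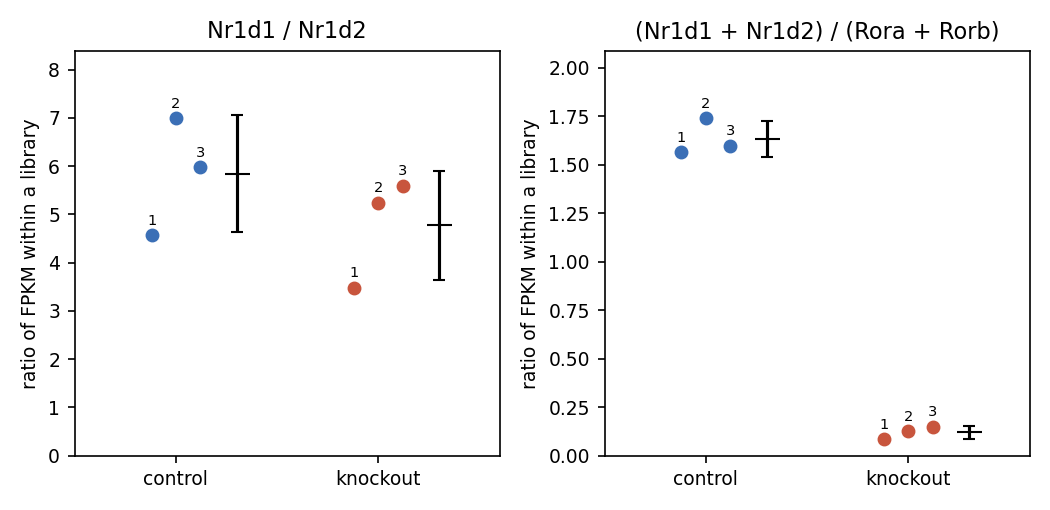
Ratio of FPKM within each library for Nr1d1 over Nr1d2 (left) and for the REV-ERB sum over the sum of Rora and Rorb (right); points are libraries numbered by replicate, and bars are the mean and SD of 3. The groups overlap on the left, between 3.49 and 6.995, and are apart on the right, from 1.56 to 1.74 in control and from 0.085 to 0.148 in knockout.

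Among nuclear receptors the REV-ERB pair changed its place in the order of levels. Of 24 receptor genes in the table, Nr1d1 ranked 1 in control, with all 3 values above every value of the other 23. Rora and Thrb, the cone thyroid hormone receptor at 19.2 ± 3.78 FPKM, followed, and these 2 overlapped. Nr1d2 ranked 7 in control, where 3 receptors lay wholly above it, 14 wholly below and 6 overlapped. In knockout, Nr1d1 ranked 10, with 8 receptors wholly above, 6 wholly below and 9 overlapping. Nr1d2 ranked 24, the last, with 22 wholly above and 1 overlapping. Of the 20 other receptors besides ROR that were tested, none passed, 13 had a negative and 7 a positive log2 difference, and their median was -0.06 against -0.02 over all tested genes. Rara, the retinoic acid receptor alpha gene, had the smallest p of these, at 3.64 ± 0.85 and 2.09 ± 0.69 FPKM (limma adjusted p = 0.895). Thrb measured 23.2 ± 2.82 FPKM in knockout (limma adjusted p = 0.97). Every gene in the table exceeded 1 FPKM in at least 1 library, so the order leaves out scarcer receptors. Nr1d2 met this limit only in control, so its last place in knockout holds only among the receptors kept.

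**Figure D3:**
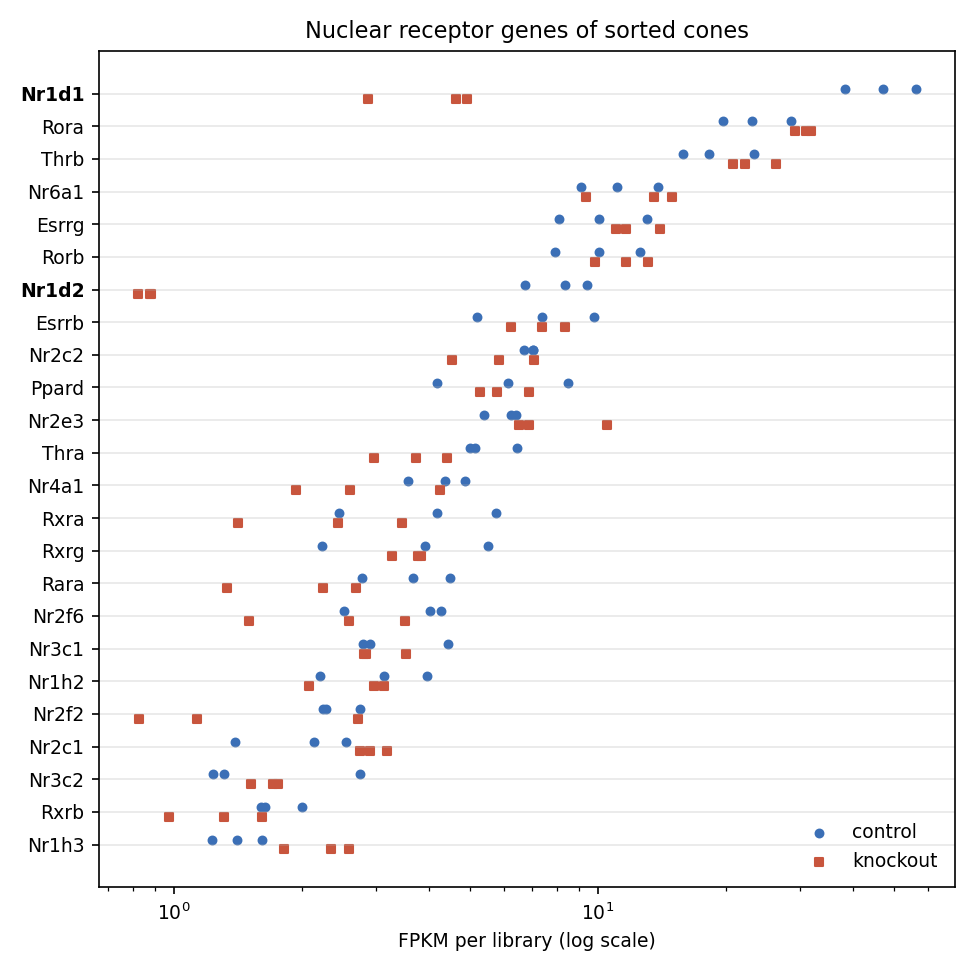
FPKM of each library on a log axis for the 24 nuclear receptor genes in the table, sorted by control mean; circles are control and squares knockout, 3 of each. Nr1d1 is at the top in control, from 38.3 to 56.3 FPKM, and falls to between 2.87 and 4.91 FPKM, and Nr1d2 falls to the lowest level shown; none of the other 22 receptors passed the test.

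The other genes of the REV-ERB pathway were read from 10 lists with 121 genes, of which 72 were tested. The lists were chosen with earlier results of these data known, so an excess of changed genes in them is not independent evidence. Beside the 2 receptors, 1 of the 72 was called lower, Per3, and 1 higher, Cry1, which is 1.39% each against 0.058% and 0.0464% over the table. The groups were apart downward for 15.3% of the 72 and upward for 11.1%, against 5.87% and 3.52%. In limma, 12 of the 72 genes had an unadjusted p under 0.05, against 474 of 8627 over the table. These 12 included 2 of 9 E-box activators and repressors, 2 of 3 other output genes, 2 of 4 clock genes with ROR and REV-ERB elements, 2 of 9 heme synthesis genes, 3 of 8 targets of other tissues and 2 of 20 other receptors, with Cry1 in 2 lists. Among ROR receptors, corepressors, heme handling and protein turnover genes the count was 0. The median log2 difference of the 72 genes was -0.07, against -0.02 over all tested genes.

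Upstream of Nr1d1 and Nr1d2 stand the E-box activators and the repressors of those activators. Of 9 such genes tested, limma called 1 lower and 1 higher, against 0.058% and 0.0464% of all tested genes. The log2 difference was negative for 4 and positive for 5, with a median of 0.02. Groups were apart downward for 2 and upward for 1, where 5.87% and 3.52% of all tested genes were. Transcripts of Clock, whose protein pairs with BMAL1, measured 5.46 ± 1.22 and 6.14 ± 0.49 FPKM (limma adjusted p = 0.9996). Per3, a period gene, read 11.3, 7.15 and 11.9 FPKM in the controls against 0.635, 0.324 and 0.717 FPKM in knockout. No values overlapped, and Per3 fell by 2.81 on the log2(FPKM + 1) scale (limma adjusted p = 0.00023). The fold between means was 18.1 for Per3, beside 11.4 for Nr1d1 and 9.50 for Nr1d2. The period genes Per1 and Per2, which form the repressor complex with the cryptochromes, measured 3.85 ± 0.55 and 1.92 ± 0.99 FPKM in the controls against 2.76 ± 1.02 and 1.55 ± 0.26 FPKM in knockout. Cry2 measured 8.97 ± 2.08 and 9.28 ± 1.19 FPKM. Bhlhe41, which encodes the E-box repressor DEC2, measured 6.53 ± 1.49 and 4.73 ± 0.43 FPKM, with the knockout values below all controls. Ciart, a repressor of the CLOCK and BMAL1 dimer, measured 1.54 ± 1.02 and 1.62 ± 0.18 FPKM. None of these 5 passed (limma adjusted p of 0.916 or more). Of 3 other clock output genes tested none passed, and their median was -0.47. Tef and Hlf, which encode PAR bZIP factors, were apart downward, at 40.8 ± 8.78 and 19.9 ± 3.06 FPKM for Tef (limma adjusted p = 0.31) and at 4.09 ± 0.75 and 2.66 ± 0.38 FPKM for Hlf (limma adjusted p = 0.897). Usp2, a ubiquitin protease gene, measured 14.2 ± 1.17 and 15.9 ± 4.001 FPKM (limma adjusted p = 0.9996).

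Downstream, 4 clock genes with ROR and REV-ERB elements were tested, and all 4 had a positive log2 difference, with a median of 0.63. Over the table, 4089 of 8627 tested genes were positive. Arntl, Clock and Cry1 also belong to the activators and repressors above, so the 2 lists are not separate, and Arntl is the deleted gene. Cry1, which encodes the cryptochrome that represses BMAL1 activity, read 4.56, 6.95 and 6.59 FPKM in the controls against 18.7, 14.9 and 20.5 FPKM in knockout. It rose by 1.44 on the log2(FPKM + 1) scale (limma adjusted p = 0.042). The call was lost without controls 2 and 3 and without each knockout library, with a limma adjusted p from 0.076 to 0.199, and without control 1 it was 0.025. It was also lost with the replicate block, at 0.23, with 0.1 FPKM added before the logarithm (0.056) and with a covariate from rod markers (0.073). In all, the call of Cry1 held in 10 of 18 alternatives. Nfil3, the bZIP repressor of D-box genes, read 1.01, 2.47 and 2.82 FPKM in the controls against 5.97, 4.84 and 5.55 FPKM in knockout. Its groups were apart, but the difference of 1.11 did not pass (limma adjusted p = 0.27). The remaining members were Arntl and Clock, with log2 differences of 0.02 and 0.16. The sign of Arntl turned negative when control 2, knockout 1 or knockout 3 was left out, and with a covariate from rod markers. The elements of this list are known from other tissues.

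**Figure D4:**
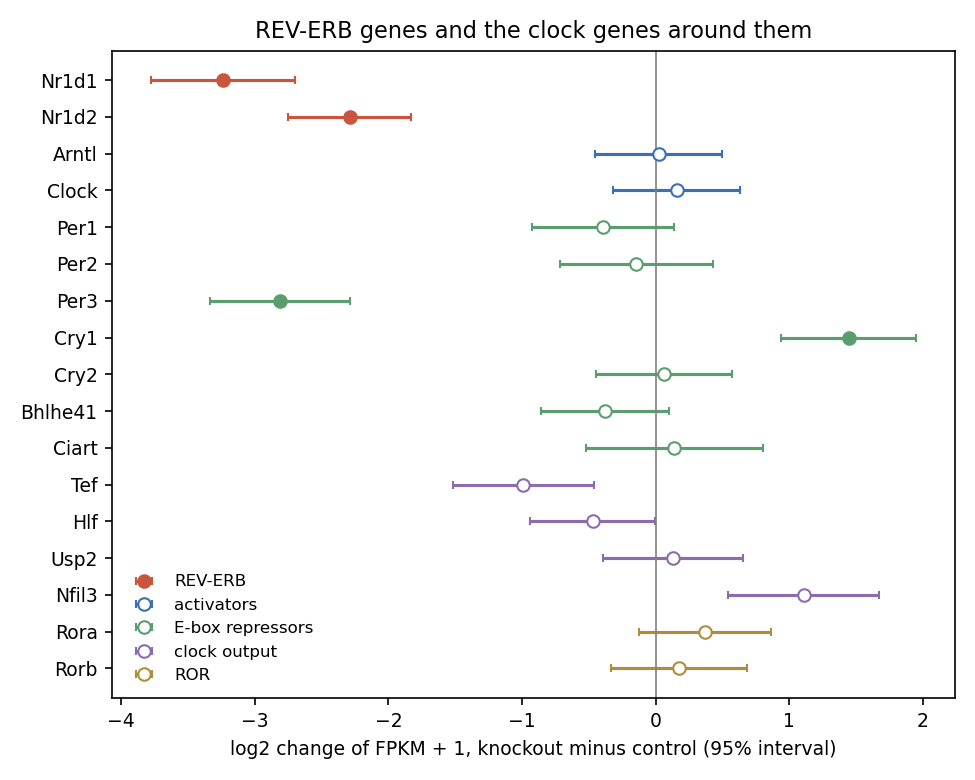
Log2 change of FPKM + 1 (knockout minus control) with its 95% limma interval for the REV-ERB genes and the tested clock genes, coloured by role; filled points passed an adjusted p of 0.05. Nr1d1 (-3.24), Per3 (-2.81) and Nr1d2 (-2.29) are on the left and Cry1 (1.44) on the right, with the intervals of most others crossing 0.

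The corepressor that REV-ERB recruits was expressed in both groups, and none of its 6 genes passed. Ncor1, which encodes the scaffold NCoR, was the most abundant at 62.2 ± 5.92 and 74.6 ± 11.4 FPKM (limma adjusted p = 0.98). The list had 4 negative and 2 positive differences, a median of -0.13 and no gene with groups apart. Genes that act on REV-ERB alpha protein were similar in this respect, with none of 7 called, none apart and a median of -0.11. The most abundant was the ubiquitin ligase gene Huwe1, at 33.2 ± 10.5 and 38.1 ± 0.75 FPKM (limma adjusted p = 0.99). The ligase genes with the smallest p were Spsb4, at 7.89 ± 3.35 and 5.22 ± 1.83 FPKM, and Siah2, at 3.91 ± 1.09 and 3.07 ± 0.43 FPKM.

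Heme is the ligand of both receptors, and the 9 enzyme genes of its synthesis were all tested. None passed, 7 had a negative and 2 a positive difference, and the median was -0.30. Alad, the gene of the porphobilinogen-forming enzyme, was apart downward, at 2.37 ± 0.94 and 1.08 ± 0.085 FPKM (limma adjusted p = 0.84). Urod, the decarboxylase gene and the most abundant, was apart downward too, at 15.7 ± 1.65 and 11.3 ± 0.83 FPKM (limma adjusted p = 0.897). Alas2, known as the erythroid form of the first enzyme, went the other way, at 2.44 ± 0.83 and 4.45 ± 1.21 FPKM (limma adjusted p = 0.87). In all, 3 of the 9 were apart downward and 1 upward, where 5.87% and 3.52% of all tested genes were. Of 14 genes of heme breakdown, binding and transport, 7 were tested, none passed, none was apart and the median was 0.03. Pgrmc1, which encodes a heme-binding membrane protein, was the most abundant at 8.40 ± 1.61 and 8.17 ± 2.02 FPKM. The heme transporter genes Slc48a1 and Abcb6 measured 3.66 ± 0.35 and 5.37 ± 2.49 FPKM in the controls against 2.81 ± 0.96 and 6.03 ± 1.08 FPKM in knockout. The adjusted p of these 3 genes was 0.956 or more in limma.

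Genes outside the clock that REV-ERB is known to repress in other tissues were mostly not analysed here, with 8 of 22 tested. None passed, 4 were positive and 4 negative, and the median was -0.03. Fabp7, the brain fatty acid binding protein gene and a REV-ERB alpha target in brain, read 21.9, 33.07 and 37.05 FPKM in the controls against 77.2, 63.8 and 76.2 FPKM in knockout. Its groups were apart, and the difference of 1.24 on the log2(FPKM + 1) scale missed the threshold (limma adjusted p = 0.196). It passed after rescaling to a common sum (limma adjusted p = 0.035) and with array weights (limma adjusted p = 0.045). Plin2, the lipid droplet protein gene, went the other way, from 2.40 ± 0.27 to 0.685 ± 0.237 FPKM in group means, also apart and not past the threshold (limma adjusted p = 0.21). Genes induced by tissue dissociation were read beside these, and none of 5 tested passed (1 had an unadjusted limma p under 0.05). Egr1, an early response gene, measured 9.94 ± 2.11 and 17.3 ± 6.81 FPKM with overlapping groups (limma adjusted p = 0.897), and the heat shock gene Hspa1a 2.13 ± 0.76 and 2.76 ± 0.47 FPKM (limma adjusted p = 0.97). The part of dissociation in the REV-ERB results was not tested.

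**Figure D5:**
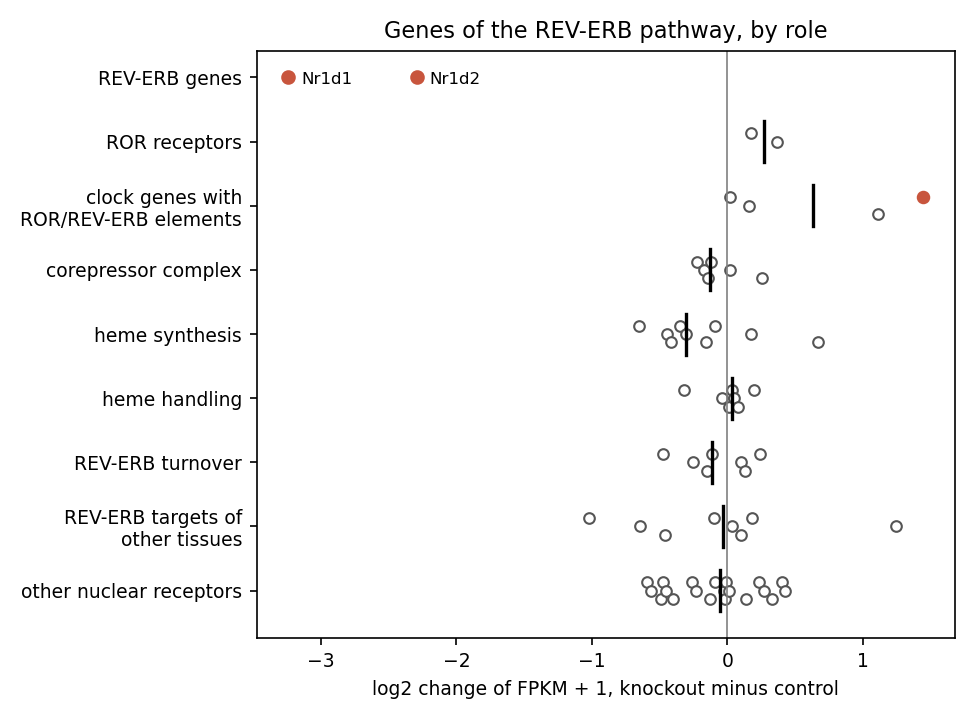
Log2 change of FPKM + 1 (knockout minus control) of each tested gene of the pathway lists other than E-box regulators and clock output, by role; filled points passed an adjusted p of 0.05 and black lines are list medians. Nr1d1 (-3.24) and Nr1d2 (-2.29) lie to the left of all other points shown, and the filled point among clock genes with ROR and REV-ERB elements is Cry1.

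The genes whose pattern was most like that of each REV-ERB gene were found by the root mean square difference of centred log2(FPKM + 1) over the 6 libraries. For Nr1d1 the nearest were Per3 (a difference of 0.41), Gzmm (0.48), Nr1d2 (0.53), Cplx3 (0.68) and Gsta4 (0.95). For Nr1d2 they were Cplx3 (0.30), Per3 (0.30), Gzmm (0.48), Nr1d1 (0.53) and Plk5 (0.54). The first 4 places of both thus held the other REV-ERB gene and the remaining 3 genes called lower. Gzmm, the granzyme M protease gene, and Cplx3, the ribbon synapse complexin 3 gene, had limma adjusted p of 0.00033 and 0.0018. Gsta4, a glutathione transferase gene, measured 5.09 ± 2.37 and 1.16 ± 0.20 FPKM and did not pass (limma adjusted p = 0.196). It passed without control 1 (limma adjusted p = 0.0011), with array weights (0.0025) and with a covariate from rod markers (0.031). Plk5, of the polo-like kinase family, had means of 12.1 ± 0.30 and 4.04 ± 1.61 FPKM (limma adjusted p = 0.083) and passed without control 1 (0.043), without knockout 1 (0.038), with the filter at 5 FPKM (0.025) and with array weights (0.011). The measure weighs the size of a change, and all these genes share the same libraries.

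Neighbouring genes were read because Nr1d1 shares exon sequence with a second gene. Exons of Thra, the thyroid hormone receptor alpha gene on the plus strand, overlap those of Nr1d1 by 263 bp, which is 8.55% of the Nr1d1 exon length of 3077 bp. Whether counting was strand-specific was not stated in the labels, so reads of this stretch may belong to either gene. Thra read 5.14, 4.99 and 6.44 FPKM in the controls against 3.72, 2.96 and 4.42 FPKM in knockout. Its groups were apart downward, but the log2 difference of -0.48 did not pass (limma adjusted p = 0.897). All Thra values lay under the Nr1d1 control values, but in knockout the values of the 2 genes overlapped, at 2.96 to 4.42 FPKM for Thra and 2.87 to 4.91 FPKM for Nr1d1. The part of shared reads in the Nr1d1 values was not tested. The other tested genes that start within 100 kb of Nr1d1 were Psmd3, Med24, Msl1, Casc3 and Wipf2, and none passed. Wipf2, which encodes an actin regulator and starts 88.3 kb away, had the smallest p, at 6.82 ± 0.76 and 3.12 ± 0.49 FPKM with groups apart (limma adjusted p = 0.24). The proteasome gene Psmd3, the Mediator gene Med24, the chromatin gene Msl1 and the exon junction gene Casc3 had log2 differences from -0.36 to -0.042, with overlapping groups. No gene of the annotation overlapped Nr1d2. The tested genes that start within 100 kb of it were the ribosomal protein gene Rpl15, at 19.7 ± 7.77 and 20.6 ± 13.1 FPKM, Nkiras1, at 5.68 ± 1.25 and 5.41 ± 0.70 FPKM, and the ubiquitin-conjugating enzyme gene Ube2e1, at 10.3 ± 3.32 and 12.8 ± 0.95 FPKM. None of the 3 passed (limma adjusted p of 0.957 or more).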

How the data were processed

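Poly(A) RNA of 6 libraries of sorted cones, 100 ng each, was made into directional libraries and sequenced in pairs, per the labels' protocols. The authors deposited FPKM values per gene and library. Cufflinks 2.2.1, TopHat2 2.1.0, DESeq2, HTSeq and the build mm10 appear in the submitters' processing notes. They do not state which tool gave the FPKM, with which annotation, or any use of strand. No value lies under 0.1 FPKM. Depth is unknown, and precision was judged from the spread between libraries.

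Groups follow the genotype labels. On the scale of log2(FPKM + 1), the 8627 of 9720 genes that averaged 1 FPKM or more were tested with limma 3.58.1 in R 4.3.3 (variance trend, two-sided, Benjamini-Hochberg over all tested genes, threshold 0.05). The fit was run on simulated data with known changes, where recovery was required only for large changes in well expressed genes. Power for smaller changes was not judged from it. Ratios within libraries were compared by exact permutation with Python 3.11.15, pandas 2.3.3 and numpy 2.4.6. Figures used matplotlib 3.10.9. Positions are from GENCODE M21 (GRCm38) and promoter windows from RefSeq (GRCm38.p6).

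The members and lists were chosen with earlier results of these data known. Named genes are the 2 members, the tested clock and ROR genes, for each other list the called genes, the 2 of smallest p and the most abundant, genes overlapping a member or starting within 100 kb, and the 5 genes of nearest pattern. Of the marker lists the sums are given in place of single genes. Alternatives were other pseudocounts (0.1, 0.5), filters (none, 5 FPKM), scalings, variance models, array weights, a covariate from rod markers, a replicate block, and omission of each library in turn. Some named genes are not reported here.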

Additional observations from a re-analysis of the deposited data

How the results depend on the processing

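Nr1d1 and Nr1d2 kept their direction and their call in each alternative that tested them. Nr1d1 ranged from -3.50 with a pseudocount of 0.1 to -3.05 without knockout 1, with a limma adjusted p of at most 0.0035. Nr1d2 ranged from -3.09 with that pseudocount to -2.19 with array weights, with at most 0.0067, and the filter at 5 FPKM removed it. Leaving out 1 library gave 5 to 8 genes called lower, 1 to 5 called higher, and 0 or 1 pathway gene called higher. Array weights gave 12 lower, 11 higher and 2 pathway genes higher. The pathway count called higher was 2 after rescaling to a common sum, and 0 with a pseudocount of 0.1, the rod marker covariate and the replicate block. The cause was not tested. The log2 difference of the REV-ERB to ROR ratio kept its sign, from -3.99 to -3.58 with 1 library left out, and that of Nr1d1 to Nr1d2 from -0.47 to -0.088.

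With the replicate block, Nr1d1 and Nr1d2 stayed called (limma adjusted p = 0.0020 and 0.0067), 5 genes were called lower and 1 higher, and exact sign flips gave p = 0.25 for both ratios, the smallest possible. Same-numbered libraries deviated from their group means with correlations of -0.12, -0.085 and -0.034, and no library correlated best with its own number. These correlations run over all tested genes and cannot show whether same-numbered libraries shared a batch.

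Sign changes were seen only among genes not called. With the rod marker covariate the log2 difference was -0.034 for Arntl, -0.059 for Cry2, -0.069 for Ciart and -0.011 for Abcb6. With array weights it was 0.12 for Per2, -0.052 for Cry2 and -0.13 for Ciart. With 1 library left out it ranged from -0.059 to 0.17 for Arntl, from -0.40 to 0.098 for Per2, from -0.12 to 0.18 for Cry2, from -0.26 to 0.37 for Ciart, from -0.030 to 0.496 for Abcb6, from -0.22 to 0.068 for Pgrmc1, from -0.16 to 0.089 for Msl1, from -0.504 to 0.387 for Rpl15 and from -0.13 to 0.10 for Nkiras1.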
